A study of Mus musculus with 2 samples.

Results

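The genes followed here are 9 vasoactive genes, chosen by name: the peptides Edn1 and Edn3, the receptors Ednra, Ednrb and Agtr1a, and the enzymes Ece1, Nos3, Ptgis and Ace. They are 9 of the 25814 genes with counts in either library, and all 9 had counts in both. They were followed across endothelial, mural, smooth muscle and fibroblast cells of brain and lung.

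Cells with a Nestin-GFP reporter were sorted out of brain and lung tissue of mice aged about 6 weeks and sequenced with the 10x Chromium droplet system as 1 library per tissue. Both groups carried the same transgene and no treatment is stated for either. The strain is C57BL/6 by the labels, while the methods describe wild-type stock of CD1 or CD1 and C3H origin to which the transgenic line was bred. Each tissue was 1 biological replicate by the study's account, sequenced once, with no number of pooled animals given in the sources used here. Cells without GFP were sorted away, so each class below is the part of that cell type that carried the reporter. With 1 library per tissue there were no replicates and no tests, each interval is an exact 95% interval for counting error only, and tissue and library cannot be told apart.

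Vessels set their width through signals made largely by the endothelium and read by the contractile cells around it. Endothelins are cut from a longer precursor by endothelin-converting enzyme, and narrow vessels mainly through the ETA receptor of mural cells, while ETB on endothelium is best known for clearing the peptide and for releasing nitric oxide. Nitric oxide from endothelial nitric oxide synthase and prostacyclin from prostacyclin synthase relax the vessel wall. Angiotensin-converting enzyme, long known for its abundance on lung capillaries, makes the constrictor angiotensin II, which acts on the AT1 receptor.

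After filtering, 4151 brain cells and 5608 lung cells remained, with medians of 4209 and 5585 unique molecular identifiers (UMIs) per cell, and 11 barcodes occurred in both. Classes were clusters named from marker lists that held none of the 9 genes, and neither these genes nor the related pathway genes entered the clustering. The brain classes compared were endothelial-like (329 cells), mural-like (169 cells) and fibroblast-like (66 cells). In lung they were endothelial-like (610 cells), pericyte-like (1750 cells), smooth muscle-like (96 cells), myofibroblast-like (1011 cells), adventitial fibroblast-like (767 cells) and matrix fibroblast-like (28 cells). Each class showed 7 or 8 of the 8 markers of its own list in 20% or more of its cells. In both myofibroblast-like clusters, 1 and 3, the smooth muscle list summed higher, at 8684 and 6535 CPM. Their own list summed to 6576 and 4512 CPM. When each cell was gated by its own score, 559 cells counted as myofibroblast-like and 612 as smooth muscle-like, so the line between these classes is not sharp. In brain 512 cells (12.3%) and in lung 1157 cells (20.6%) stayed unnamed under naming thresholds set after seeing the data. Scrublet called 44 brain and 74 lung cells doublets, and these were kept. Neuroblast-like (NB-like) brain cells (1775 cells, median 4464 UMIs) and T cell-like lung cells (121 cells, median 1985 UMIs) served as classes in which free RNA could be read.

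No separate brain smooth muscle class was found. Of the 169 brain mural-like cells, 96 had a UMI of none of 6 contractile genes (Acta2, Tagln, Myh11, Cnn1, Lmod1 and Des), 64 of 1 and 7 of 2 of them. At least 3 were found in 2 cells. These 2 cells held 1 UMI of Ednra, 1 of Ece1 and none of the other 7 genes, which is too little to describe a brain smooth muscle level. Brain values for smooth muscle are therefore not given, and the brain mural-like class, at a median of 2559 UMIs per cell, is used whole.

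The sequences before the start sites of the peptide, both endothelin receptors and Ace are shown because these genes carry the patterns below. RefSeq promoter entries (GRCm38.p6) matched 6 of the 9 genes. Nos3, Ptgis and Agtr1a did not match. Each line gives the 250 bases before an annotated start, 5′ to 3′ on the strand of the gene, and capitals mark a motif match.
Edn1, chr13:42301226-42301475, plus strand: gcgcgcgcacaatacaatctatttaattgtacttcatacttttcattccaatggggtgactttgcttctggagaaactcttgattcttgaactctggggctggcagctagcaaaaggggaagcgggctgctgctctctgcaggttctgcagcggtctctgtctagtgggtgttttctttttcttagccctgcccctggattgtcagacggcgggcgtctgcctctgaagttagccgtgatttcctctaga
Ednra, chr8:77724453-77724702, minus strand: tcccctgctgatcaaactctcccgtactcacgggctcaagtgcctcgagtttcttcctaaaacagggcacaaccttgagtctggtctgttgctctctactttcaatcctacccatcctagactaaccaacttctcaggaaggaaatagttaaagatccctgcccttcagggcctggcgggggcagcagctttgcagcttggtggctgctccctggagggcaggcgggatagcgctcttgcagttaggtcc
Ednrb, chr14:103843702-103843951, minus strand: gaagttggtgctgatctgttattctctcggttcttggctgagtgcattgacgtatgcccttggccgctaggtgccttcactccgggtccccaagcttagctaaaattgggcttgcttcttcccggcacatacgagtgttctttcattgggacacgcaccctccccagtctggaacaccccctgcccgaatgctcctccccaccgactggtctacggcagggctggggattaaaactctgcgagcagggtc
Ace, chr11:105967698-105967947, plus strand: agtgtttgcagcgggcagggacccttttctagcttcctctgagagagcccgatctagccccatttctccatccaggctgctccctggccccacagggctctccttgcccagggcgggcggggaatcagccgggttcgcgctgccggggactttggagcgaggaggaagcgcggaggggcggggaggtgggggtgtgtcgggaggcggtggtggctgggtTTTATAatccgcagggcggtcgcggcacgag
The windows of the 6 matched genes were searched on both strands for TATAAA (the TATA box), for GATAA (read by GATA factors), for TGANTCA (read by AP-1 factors), for CCGGAA (read by ETS factors) and for the CArG box of smooth muscle genes. The only match was TATAAA before Ace, read on the opposite strand as the capitals above and 25 bases from the start. It occurred in 12.4% of 32851 mouse promoters of the same length. The other motifs occurred in 22.6%, 6.75%, 12.03% and 1.47% of promoters in that order. No match says only that these letters were not in these windows, and the Ednrb window did not read into an annotated GENCODE transcript.

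Edn1 encodes the precursor of endothelin-1 and lies at chr13:42301476-42307990 on the plus strand of GRCm38. It was read almost entirely in endothelial-like cells of both tissues. Its level was 271 CPM (UMIs of a gene scaled to the total UMIs of the class) in brain endothelial-like cells (342 UMIs, interval 243 to 302) and 261 CPM in lung endothelial-like cells (904 UMIs, 244 to 278). These cells held 342 of the 350 Edn1 UMIs of the brain library and 904 of the 959 of the lung library. The lung over brain ratio was 0.961 (0.848 to 1.09), so the counts did not separate the libraries for this gene.

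Outside the endothelium Edn1 was low. Brain mural-like and fibroblast-like cells held no UMI, and the endothelial-like level was at least 42.3-fold higher than in mural-like cells, against a floor of 3 counts over that class. In lung the smooth muscle-like class stood next at 20.7 CPM, from 10 UMIs in 8 cells. The pericyte-like level of 2.83 CPM came from 28 UMIs, of which 24 were in 1 cell. After each cell was thinned to 2000 UMIs, a UMI was found in 27.5% of the brain and 30.0% of the lung endothelial-like cells (39.2% and 50.8% before thinning). The T cell-like class had 0 of 60 such cells (upper limit 5.0%, where each upper limit of a share of 0 is 3 cells of the total), and NB-like cells stood at 0.0584%. Within brain endothelium Edn1 was uneven: the 10% of cells richest in it held 59.9% of its UMIs, and 1 cell held 21.

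Edn3 encodes the precursor of endothelin-3 and lies at chr2:174760619-174784042 on the plus strand. Its distribution was unlike that of Edn1 and differed between the tissues. The highest level was in brain fibroblast-like cells, at 335 CPM (131 UMIs, 280 to 397), followed by brain endothelial-like cells at 105 CPM (88.3 to 125). Brain mural-like cells held no UMI. In lung the order was turned, with 70.2 CPM (694 UMIs, 65.1 to 75.6) in pericyte-like cells and 1.44 CPM in endothelial-like cells.

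The other lung classes read 16.9 CPM (myofibroblast-like), 7.02 CPM (adventitial fibroblast-like) and 2.07 CPM (1 UMI, smooth muscle-like), and T cell-like cells read 5.0 CPM from 2 UMIs. Brain endothelial-like cells were thus 73.1-fold (30.6 to 229) above lung endothelial-like cells, and lung pericyte-like cells at least 10.9-fold above brain mural-like cells. After thinning, 39.7% of brain fibroblast-like, 15.7% of brain endothelial-like and 12.1% of lung pericyte-like cells had a UMI, against 0 of 1712 NB-like cells of brain (upper limit 0.175%) and 0 of 60 T cell-like cells of lung (upper limit 5.0%). Before thinning the shares were 60.6%, 28.3% and 28.2%. Among glia of the brain, 53 Edn3 UMIs were found in 4 of 851 cells that resembled quiescent stem cells and astrocytes, 37 of them in 1 cell.

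Ece1, at chr4:137862237-137965229 on the plus strand, encodes the enzyme that releases active endothelin. In the brain it was high in all 3 classes compared and highest in mural-like cells. The levels were 715 CPM (640 to 795) in brain mural-like, 424 CPM (389 to 462) in brain endothelial-like and 212 CPM (169 to 263) in brain fibroblast-like cells. Lung endothelial-like cells read 582 CPM (557 to 608). No other lung class compared exceeded 39.3 CPM, and all of them were below the 52.5 CPM (32.5 to 80.2) of T cell-like cells. These low levels were uneven within classes. Adventitial fibroblast cluster 15 read 72.7 CPM (55.5 to 93.6), 4.42-fold (3.13 to 6.23) above cluster 2, and myofibroblast cluster 1 was 2.02-fold (1.54 to 2.66) above cluster 3. The part of free RNA in them was not tested.

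The mural classes of the tissues differed far more in Ece1 than the endothelial classes did. Brain mural-like cells were 24.96-fold (21.2 to 29.3) above lung pericyte-like cells, while lung endothelial-like cells were 1.37-fold (1.25 to 1.51) above brain endothelial-like cells. Thinned shares followed the levels, with 78.6% of brain mural-like, 64.0% of lung endothelial-like, 51.0% of brain endothelial-like and 34.9% of brain fibroblast-like cells. Lung pericyte-like cells stood at 5.72%, below the 8.33% of T cell-like and the 6.66% of NB-like cells. Before thinning these 7 shares were 80.5%, 88.7%, 70.8%, 45.5%, 13.4%, 14.9% and 14.4%.

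Edn1 and its converting enzyme were read together in many endothelial-like cells. After thinning, 121 of 566 lung and 39 of 255 brain endothelial-like cells had a UMI of both, which is 71.2% and 55.7% of the cells with Edn1. Of all these endothelial-like cells 64.0% in lung and 51.0% in brain had Ece1, so these shares were not far from those of the whole class. In brain mural-like cells, where Ece1 was highest, no cell had both, since none had Edn1.

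**Figure D1:**
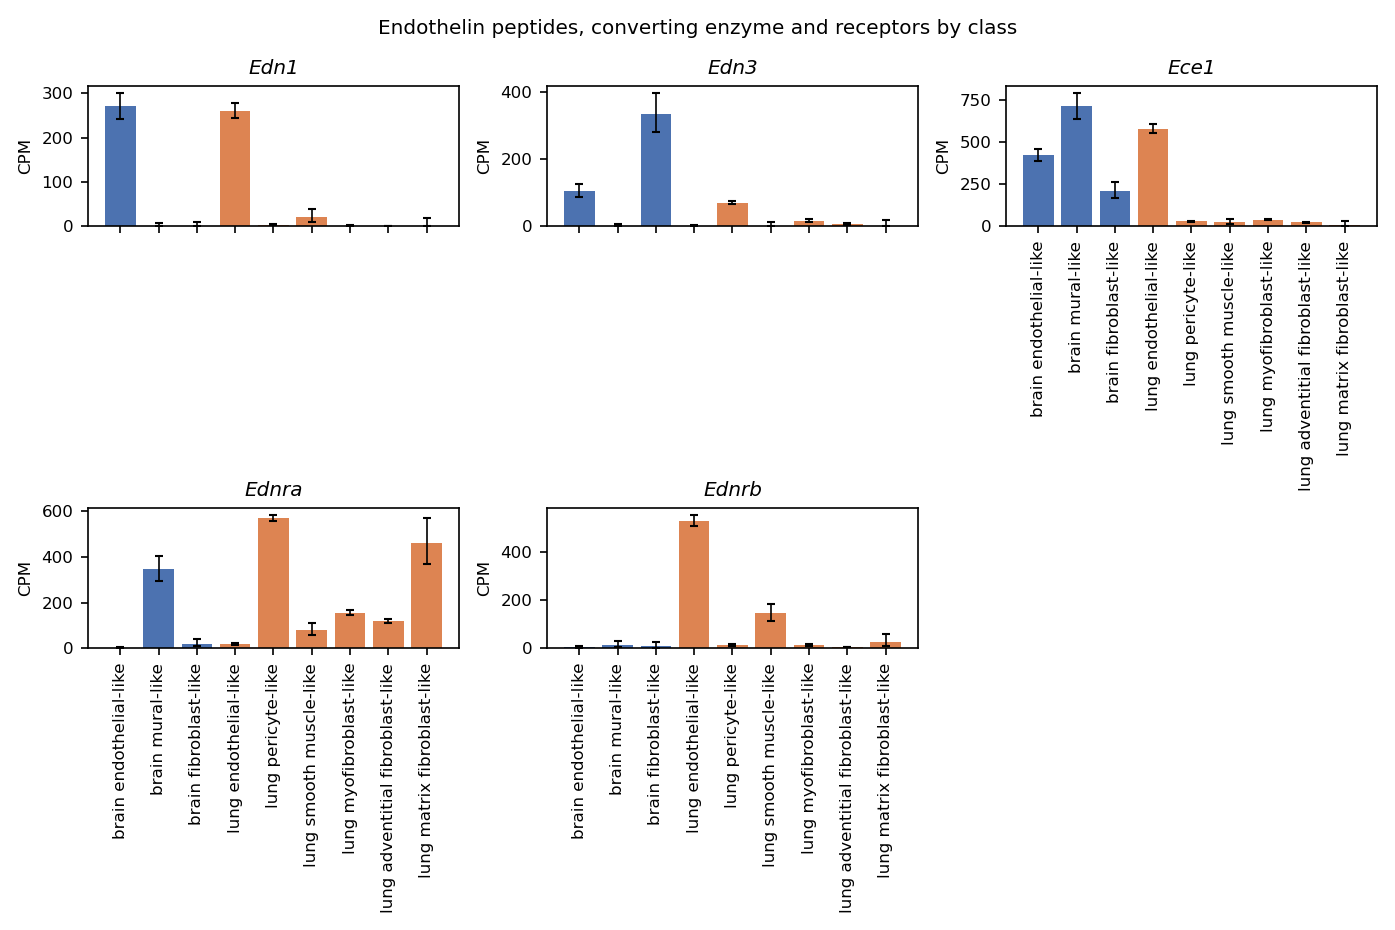
Levels of Edn1, Edn3, Ece1, Ednra and Ednrb in 3 brain classes (blue) and 6 lung classes (orange), in CPM of the class total, with exact 95% Poisson intervals as error bars. Edn1 stands at 271 and 261 CPM in both endothelial-like classes, while Ednrb reaches 530 CPM in lung and 3.17 CPM in brain endothelial-like cells.

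Ednra encodes the ETA receptor and lies at chr8:77663031-77724464 on the minus strand. It was highest in lung pericyte-like, lung matrix fibroblast-like (28 cells, a class that did not form once the cells called by Scrublet were removed) and brain mural-like cells. Lung pericyte-like cells read 569 CPM (5629 UMIs, 555 to 584), lung matrix fibroblast-like cells 461 CPM (88 UMIs, 370 to 568) and brain mural-like cells 347 CPM (162 UMIs, 295 to 404). The pericyte-like class was 1.64-fold (1.41 to 1.93) above the brain mural-like class. The interval of the matrix fibroblast-like class overlapped those of both others.

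Below these came lung myofibroblast-like cells at 156 CPM (147 to 166), adventitial fibroblast-like cells at 120 CPM (111 to 129) and smooth muscle-like cells at 80.7 CPM (57.4 to 110). The smooth muscle-like class was thus 7.05-fold (5.15 to 9.93) below the pericyte-like class. Brain fibroblast-like cells read 20.5 CPM from 8 UMIs and brain endothelial-like cells 2.38 CPM from 3 UMIs. Lung endothelial-like cells read 17.9 CPM, below the 27.5 CPM (11 UMIs) of T cell-like cells. Of the lung endothelial-like clusters, cluster 4 read 27.0 CPM, cluster 10 read 4.17 CPM and cluster 17 read 2.53 CPM, and the first was 6.48-fold (2.40 to 24.6) above the second. The part of free RNA in these levels was not tested.

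Ednra was carried by most lung pericyte-like cells. The thinned share was 65.5% in lung pericyte-like, 55.6% in matrix fibroblast-like, 43.5% in brain mural-like, 26.6% in myofibroblast-like, 20.8% in adventitial fibroblast-like and 13.2% in smooth muscle-like cells. T cell-like cells stood at 6.67% and NB-like cells at 0 of 1712 (upper limit 0.175%). The unthinned shares in the same order were 91.8%, 85.7%, 55.6%, 59.6%, 51.8%, 25%, 5.79% and 0.169%.

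Ednrb encodes the ETB receptor and lies at chr14:103814625-103844402 on the minus strand. Among the vascular classes it was high in lung endothelium and low in brain. Lung endothelial-like cells read 530 CPM (1839 UMIs, 506 to 555) and lung smooth muscle-like cells 147 CPM (71 UMIs, 115 to 185), of whose UMIs 22 were in 1 cell. Brain endothelial-like cells read 3.17 CPM from 4 UMIs, brain fibroblast-like cells 10.2 CPM from 4 UMIs and brain mural-like cells 14.98 CPM from 7 UMIs. NB-like cells read 14.1 CPM as a class, with 3.61 and 3.63 CPM in their largest clusters and 38.5 and 37.3 CPM in a further pair.

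The lung over brain endothelial ratio of Ednrb was 167 (65.2 to 614). The other lung classes compared read 4.63 to 26.2 CPM. After thinning, 39.4% of lung endothelial-like and 19.7% of smooth muscle-like cells had a UMI (55.7% and 22.9% before), against 1.46% of NB-like cells and 0 of 60 T cell-like cells (upper limit 5.0%). In brain the gene was carried outside the vessels: cells resembling quiescent stem cells and astrocytes read 698 CPM (669 to 727), oligodendrocyte progenitor-like cells 564 CPM and ependymal-like cells 154 CPM. In lung 33 Schwann-like cells read 278 CPM (49 UMIs, 206 to 367). All classes compared, fibroblasts included, together held 0.48% of the 3122 Ednrb UMIs of the brain library and 96.5% of the 2239 of the lung library.

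Nos3, at chr5:24364810-24384474 on the plus strand, encodes endothelial nitric oxide synthase. It was read in endothelial-like cells of both tissues and was higher in brain. Its level was 133 CPM (168 UMIs, 114 to 155) in brain and 53.9 CPM (187 UMIs, 46.5 to 62.2) in lung endothelial-like cells, a 2.47-fold (1.99 to 3.06) difference. The other classes compared read at most 6.42 CPM, which was 3 UMIs in brain mural-like cells. The thinned shares were 21.6% and 10.6%, with 0.584% of NB-like cells and 0 of 60 T cell-like cells (upper limit 5.0%), and 36.2% and 23.3% before thinning. Both Nos3 and Edn1 were found in 12 of 255 brain and 20 of 566 lung endothelial-like cells at that depth.

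Ptgis, at chr2:167191805-167240604 on the minus strand, encodes prostacyclin synthase. It was highest in lung smooth muscle-like cells and second in fibroblasts, and low in endothelium and pericytes. Lung smooth muscle-like cells read 571 CPM (276 UMIs, 506 to 643), adventitial fibroblast-like cells 137 CPM (128 to 146), matrix fibroblast-like cells 99.5 CPM (59.9 to 155) and myofibroblast-like cells 88.0 CPM (81.1 to 95.3). Brain fibroblast-like cells read 53.7 CPM from 21 UMIs, 10 of them in 1 cell. Endothelial-like cells read 19.0 CPM (12.2 to 28.3) in brain and 10.7 CPM (7.51 to 14.7) in lung, and lung pericyte-like cells 4.05 CPM.

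The smooth muscle-like level of Ptgis was 141-fold (101 to 202) above pericyte-like cells and 4.17-fold (3.63 to 4.78) above adventitial fibroblast-like cells. After thinning, 57.9% of smooth muscle-like cells had a UMI, followed by 18.8% of adventitial fibroblast-like, 14.8% of matrix fibroblast-like and 13.5% of myofibroblast-like cells (64.6%, 45.9%, 39.3% and 21.5% before). T cell-like cells had 0 of 60 (upper limit 5.0%). The value depends on which cells count as smooth muscle. A further 202 lung cells (cluster 8) scored highest on the smooth muscle list with the mural list close behind and stayed unnamed. They held no Ptgis UMI, 325 CPM of Ednra and 11.3 CPM of Ednrb. Their Agtr1a level was 54.0 CPM (62 UMIs, 41.4 to 69.3), 13.1-fold (3.46 to 110) above the smooth muscle-like class. Edn3 stood at 24.4 CPM in them against 2.07 CPM in that class, and Edn1 at 1.74 against 20.7 CPM. Counted as smooth muscle-like, they brought the ratio to pericyte-like cells to 41.8 for Ptgis, 3.95 for Ednrb, 0.444 for Ednra, 0.253 for Edn3 (from 0.0295) and 2.60 for Edn1 (from 7.31), and that of Ptgis to adventitial fibroblast-like cells to 1.24. When every cell was gated by its own score, 612 cells counted as smooth muscle-like and the last ratio was 0.895.

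Ace encodes angiotensin-converting enzyme and lies at chr11:105967945-105989964 on the plus strand. It was high in lung endothelial-like cells alone among the classes compared. Its level there was 766 CPM (2656 UMIs, 737 to 796), and these cells held 2656 of the 2970 UMIs of the lung library. Brain endothelial-like cells read 9.52 CPM from 12 UMIs, so that the lung over brain ratio was 80.5 (46.0 to 156). In brain the fibroblast-like class stood above the endothelial-like class, at 28.1 CPM from 11 UMIs, a 2.95-fold (1.18 to 7.32) difference. Lung myofibroblast-like and adventitial fibroblast-like cells read 19.7 and 18.7 CPM, within the interval of T cell-like cells (12.5 CPM, 4.06 to 29.2). The thinned share of lung endothelial-like cells with a UMI was 72.4% (83.6% before thinning), and no other class compared exceeded 4.19%. Before thinning adventitial fibroblast-like cells stood at 12.1%, brain fibroblast-like at 10.6% and myofibroblast-like at 10.4%.

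Agtr1a encodes the main AT1 receptor of rodents and lies at chr13:30336441-30382867 on the plus strand. It was read in lung pericyte-like cells, at 193 CPM (1907 UMIs, 184 to 202), and no other class compared exceeded 6.86 CPM. Brain mural-like cells held 1 UMI, so the pericyte over mural ratio was 90.2 with an interval of 16.2 to 3563. Lung smooth muscle-like cells held 2 UMIs, and their ratio to pericyte-like cells was 0.0215. It was 0.203 with the 202 cells of cluster 8 counted as smooth muscle-like, 0.199 at a clustering resolution of 0.4, 0.142 without an upper limit of genes per cell and 0.0866 with each cell gated by its own score. After thinning, 31.6% of lung pericyte-like cells had a UMI (62.5% before), and the next class, adventitial fibroblast-like, stood at 1.25%. The whole brain library held 5 Agtr1a UMIs. The close paralog Agtr1b read at most 10.5 CPM in any class compared (2 UMIs in matrix fibroblast-like cells), and reads shared by both genes could have been lost or split in counting.

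Joint detection of the receptors was counted per cell. Of 1732 pericyte-like cells thinned to 2000 UMIs, 1135 had Ednra, 547 had Agtr1a and 369 had both, which is 67.5% of the cells with Agtr1a, beside 65.5% of all these cells with Ednra. Both Ednra and Ednrb were found in 17 of these cells. In the smooth muscle-like class 2 of 76 cells had both endothelin receptors and none had Ednra with Agtr1a.

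**Figure D2:**
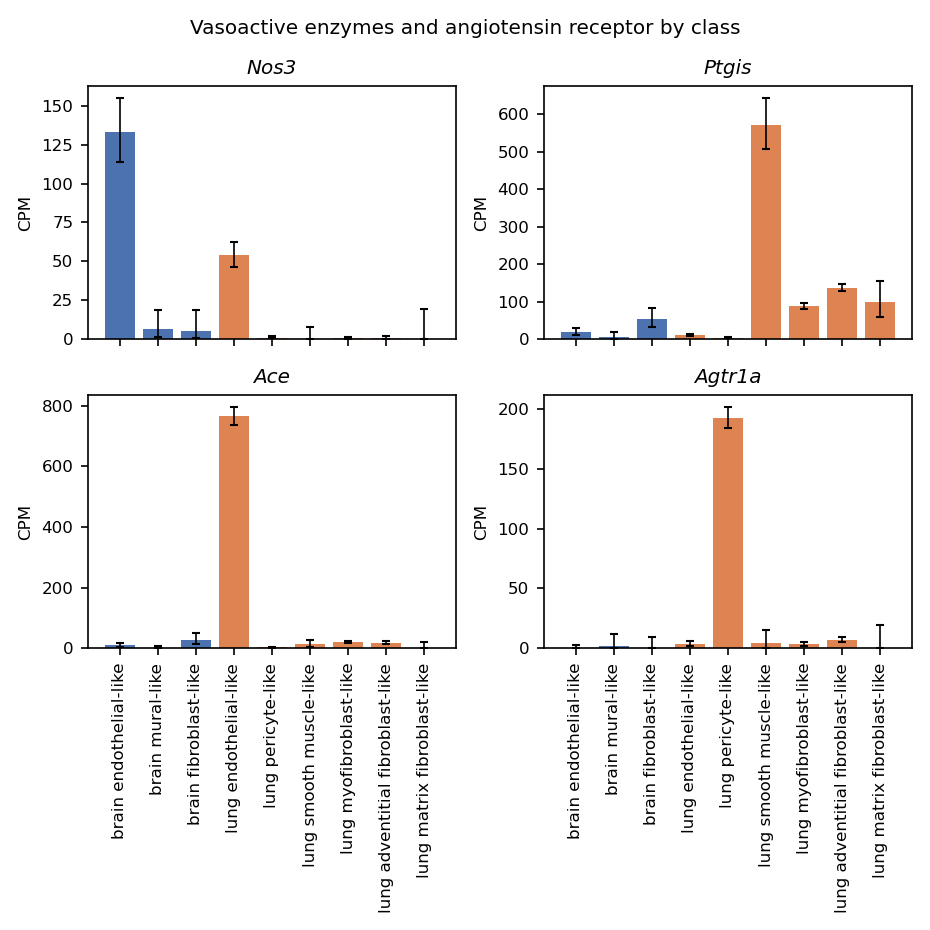
Levels of Nos3, Ptgis, Ace and Agtr1a in 3 brain classes (blue) and 6 lung classes (orange), in CPM of the class total, with exact 95% Poisson intervals. Each gene stands highest in a different class: Nos3 in brain endothelial-like (133 CPM), Ptgis in lung smooth muscle-like (571 CPM), Ace in lung endothelial-like (766 CPM) and Agtr1a in lung pericyte-like cells (193 CPM).

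Of the 81 pairs of gene and class, 20 reached 100 CPM and 25 reached a thinned share of 10%. Levels of different genes are not set against each other here, since counts at the 3′ end depend on the gene.

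**Figure D3:**
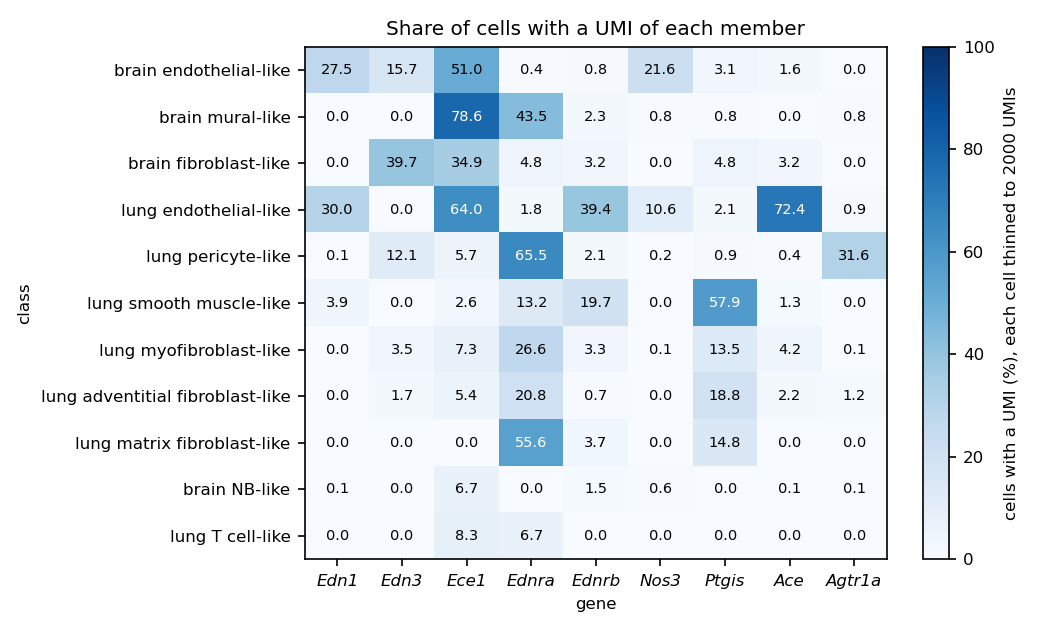
Share of cells with at least 1 UMI of each gene (columns) in 9 compared classes and 2 classes used for background (rows), each cell thinned to 2000 UMIs. Darker cells mark higher shares, from 0 to 78.6% (Ece1 in brain mural-like cells), with Ace at 72.4% in lung endothelial-like and Ednra at 65.5% in lung pericyte-like cells.

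The endothelial and mural cells of each tissue were then set against each other. A gene was counted as different where its CPM ratio was at least 2 or at most 0.5 with at least 10 UMIs over both classes, and that minimum means that a gene high in only 1 class is tested because of it. In brain, 6 of 8 tested genes differed between endothelial-like and mural-like cells, against 34.9% of all 10421 genes tested. Edn1, Edn3, Nos3 and Ptgis were higher in endothelial-like cells (4 genes, against 17.9% of all genes), the last at 2.97-fold with an interval (0.900 to 15.4) that includes 1. Ednra was 146-fold (49.0 to 714) lower and Ednrb 4.72-fold (1.2 to 22.0) lower (2 genes, against 17% of all genes), the latter from 7 mural UMIs. Short of that threshold, the Ece1 level was 1.68-fold (1.46 to 1.93) lower and that of Ace at least 1.48-fold higher. In lung, 9 of 9 differed between endothelial-like and pericyte-like cells, against 34% of 13733 genes. Edn1, Ednrb, Ece1, Nos3, Ptgis and Ace were higher in endothelial-like cells (6 genes, against 16.1%), with ratios from 2.64 for Ptgis to 261 for Ace. Edn3, Ednra and Agtr1a were 48.7-fold, 31.8-fold and 51.5-fold lower (3 genes, against 17.9%). The Ace ratio was 738 and that of Edn1 925 without an upper limit of genes per cell.

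The tissues were compared for the matching classes. Between lung and brain endothelial-like cells 5 of 9 genes differed, against 27.5% of 11959 genes: Ednrb, Ace and Ednra were higher in lung (3 genes, against 14.2% of all genes), and Edn3 and Nos3 higher in brain (2 genes, against 13.3%). The Ednra ratio of 7.52 (2.46 to 37.4) rests on a lung level below that of T cell-like cells, and was 2.31 without the cells that Scrublet called, where the Edn3 ratio moved from 0.0137 to 0.00276. The Ednrb ratio was 47.1 when each cell was gated by its own score. A split by subset marker lists, added after seeing the data, used different lists in each library. Of 329 brain cells, 317 went to a brain capillary and 6 to an arterial list. In lung 437 of 610 cells went to the arterial list. The 6 brain arterial-list cells held 5 of the 12 Ace UMIs, at 165 CPM (53.6 to 385) against 5.72 CPM in capillary-list cells. The part of this mix in the ratios was not tested. Edn1, Ece1, Ptgis and Agtr1a did not pass, with Ptgis 1.78-fold (1.02 to 3.06) higher in brain. Between lung pericyte-like and brain mural-like cells 4 of 7 differed, against 34.4% of 12077 genes. Edn3 and Agtr1a were higher in lung (2 genes, against 13.6% of all genes), and Ece1 and Nos3 (10 UMIs in lung and 3 in brain) higher in brain (2 genes, against 20.8%). Ednrb and Ptgis had intervals that included 1, at 0.871 (0.411 to 2.21) and 0.630 (0.201 to 3.19). The Ednrb ratio rests on cluster 13, which held 120 of the 129 pericyte-like UMIs. Without it the lung level was 0.961 CPM (0.440 to 1.83), below the 14.98 CPM (6.02 to 30.9) of brain mural-like cells.

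**Figure D4:**
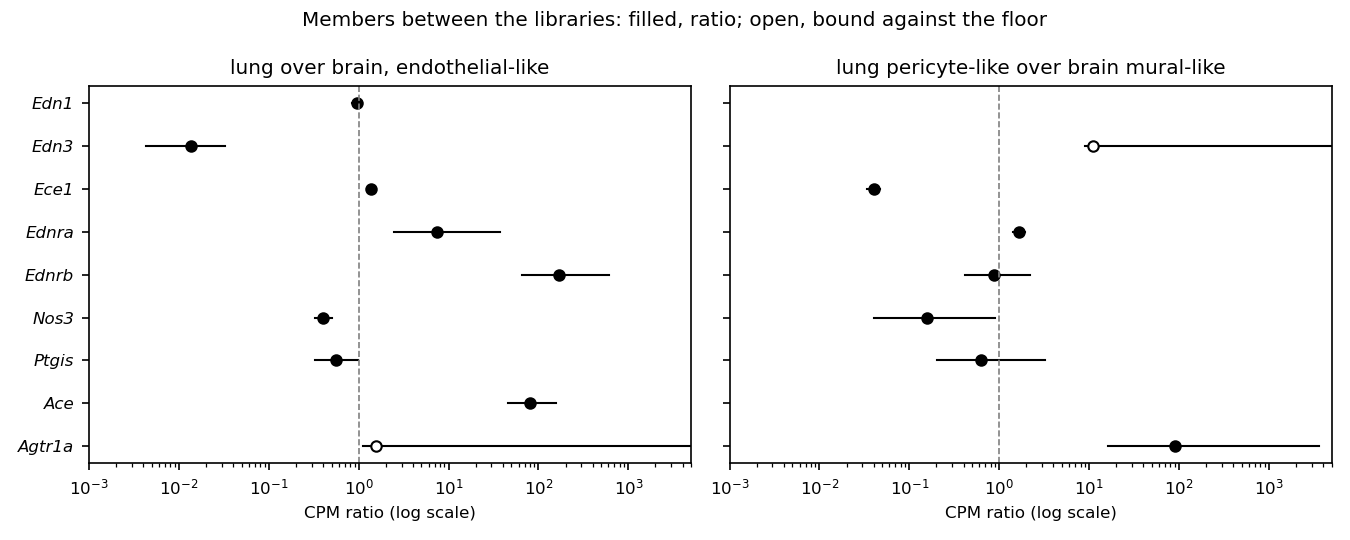
Ratio of CPM (log axis) of each gene between the libraries, with exact 95% intervals, for endothelial-like cells (left) and for lung pericyte-like over brain mural-like cells (right). Filled points are ratios, open points are bounds against a floor of 3 counts, and genes without enough counts have no point. Edn1 lies at 0.961, Ednrb at 167 and Ace at 80.5 on the left, and Ece1 at 0.0401 and Agtr1a at 90.2 on the right.

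Fibroblasts were the other stromal contrast. In brain, 6 of 7 tested genes differed between endothelial-like and fibroblast-like cells (38.3% of all genes) and 5 of 6 between mural-like and fibroblast-like cells (33.8%). Edn1 and Nos3 were higher in endothelial-like cells (2 genes, against 23.6% of all genes), Ece1 was just short of the threshold at 1.9995-fold (1.58 to 2.55), and Edn3, Ednra, Ptgis and Ace were higher in fibroblast-like cells (4 genes, against 14.6%). Mural-like cells were above fibroblast-like cells in Ednra (16.9-fold, 8.40 to 39.9) and Ece1 (3.37-fold, 2.64 to 4.34; 2 genes, against 21.4%), and below them in Edn3 (at least 52.2-fold), Ptgis (8.36-fold, 2.497 to 43.8) and Ace (at least 4.38-fold), 3 genes against 12.4%.

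In lung the adventitial fibroblast-like class held most fibroblasts, and its comparisons were added after seeing the data. Against it 8 of 9 genes differed in endothelial-like cells (38.3% of all genes), 7 of 9 in pericyte-like cells (35%), 4 of 8 in smooth muscle-like cells (28.9%) and 4 of 8 in myofibroblast-like cells (25.5%). In endothelial-like cells Edn1, Ednrb, Ece1, Nos3 and Ace were higher (5 genes, against 20.4%) and Edn3, Ednra and Ptgis lower (3 genes, against 17.8%). Pericyte-like cells were 28.1-fold (20.8 to 39.0) higher in Agtr1a, 10.0-fold (7.37 to 13.9) higher in Edn3 and 4.75-fold (4.40 to 5.13) higher in Ednra, with Edn1 and Ednrb also higher (5 genes, against 18.9%). The Edn1 difference rests on 28 UMIs, 24 of them in 1 cell, and its ratio was 0.236 to 0.871 under 4 alternatives. Without cluster 13, a pericyte-like cluster that held 120 of 129 Ednrb UMIs, the Ednrb level was 0.961 CPM (0.440 to 1.83), below the 4.63 CPM (3.099 to 6.65) of adventitial fibroblast-like cells. They were 33.8-fold (24.6 to 47.7) lower in Ptgis and 6.36-fold (4.21 to 9.92) lower in Ace (2 genes, against 16.1%). Smooth muscle-like cells were higher in Edn1, Ednrb and Ptgis (3 genes, against 13.7%) and lower in Edn3, which had 1 UMI there (1 gene, against 15.2%). That Edn3 ratio of 0.295 was 1.71 to 2.55 under 4 alternatives.

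Myofibroblast-like cells were 2.40-fold (1.68 to 3.48) higher in Edn3 and 2.76-fold (1.79 to 4.36) higher in Ednrb than adventitial fibroblast-like cells, with Edn1 also past the threshold (3 genes, against 13.2%) and Agtr1a lower (1 gene, against 12.2%). The Edn1 ratio of 2.45 came from 8 against 3 UMIs, had an interval (0.588 to 14.3) that includes 1 and was 0.492 without an upper limit of genes per cell. The Agtr1a levels of 3.37 and 6.86 CPM both lay within the T cell-like interval (1 UMI, 0.0633 to 13.9). Adventitial cluster 15 held 17 of the 43 Agtr1a UMIs of its class, at 20.6 CPM against 5.03 CPM in cluster 2. The Ednrb levels were uneven within both classes, at 18.5 and 5.83 CPM in myofibroblast clusters 1 and 3 and at 1.74 and 23.0 CPM in adventitial clusters 2 and 15, and the myofibroblast-like level of 12.8 CPM lay within the T cell-like interval (1.55 to 21.9). Ednra at 1.30-fold (1.19 to 1.43) and Ptgis at 0.643-fold (0.578 to 0.714) did not reach the threshold. Smooth muscle-like and pericyte-like cells differed in 7 of 8 genes (35.2%). Edn1, Ednrb, Ptgis and Ace were higher in smooth muscle-like cells (4 genes, against 14.8%) and Edn3, Ednra and Agtr1a lower (3 genes, against 20.4%). The Ace level of 12.4 CPM came from 6 UMIs, 4 of them in 1 cell, beside 12.5 CPM (4.06 to 29.2) in T cell-like cells. Its ratio ranged from 1.88 to 11.0 under the alternatives. The smooth muscle-like Ednrb level of 147 CPM (115 to 185) was below the 229 CPM (190 to 274) of pericyte-like cluster 13.

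Against the 28 matrix fibroblast-like cells, 7 of 7 genes differed in endothelial-like (36.1%), 5 of 6 in pericyte-like (34.7%) and 3 of 6 in myofibroblast-like cells (28.9%). By direction, endothelial-like cells had 5 genes higher (19.2% of all genes) and 2 lower (16.9%), pericyte-like cells 3 higher (16%) and 2 lower (18.7%), and myofibroblast-like cells 1 higher (13.5%) and 2 lower (15.4%). The Ednra level of the matrix fibroblast-like cells was 2.95-fold (2.35 to 3.67) above that of myofibroblast-like cells. Compared with brain fibroblast-like cells, 3 of 5 genes differed in matrix fibroblast-like (36.2%) and 5 of 6 in adventitial fibroblast-like cells (33.8%). Matrix fibroblast-like cells had Ednra higher (1 gene, against 18.9%) and Edn3 and Ece1 lower (2 genes, against 17.3%). Edn3 was 47.7-fold (33.7 to 68.7) and Ece1 8.92-fold (6.74 to 11.8) lower in adventitial fibroblast-like than in brain fibroblast-like cells, where Ednrb, with 4 UMIs in brain and a ratio of 0.453 (0.159 to 1.77) whose interval includes 1, was lower too (3 genes, against 19.4%), and Ednra 5.86-fold (2.96 to 13.6) and Ptgis 2.55-fold (1.66 to 4.14) higher (2 genes, against 14.5%).

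Several lung classes were made of clusters between which these genes varied. The endothelial-like class held cluster 4 (394 cells, led by Vwf, Lyve1 and Stmn2, with Gja5, Cxcl12 and Ednrb itself among its 10 leading genes), cluster 10 (141 cells, with Gpihbp1, Cd36 and Hpgd) and cluster 17 (75 cells, led by Fabp4, Rbp7 and Cd300lg). Ednrb was 755 CPM (718 to 793) in cluster 4, 159 CPM (135 to 187) in cluster 10 and 232 CPM (187 to 285) in cluster 17. Ace was 867 CPM (828 to 908), 828 CPM (772 to 888) and 75.8 CPM (51.1 to 108) in the same order. Edn1 and Ece1 were even, at 220 to 268 CPM and 561 to 624 CPM, with intervals of every pairwise ratio including 1.

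Ednrb in lung endothelium is known as a marker of aerocytes, the gas exchange capillary cells that also carry Apln and Car4. Cluster 4, with most of the Ednrb UMIs, held 3 UMIs of Apln and none of Car4. Of its cells, 20% or more carried each of the 8 arterial markers, whose levels summed to 13778 CPM, and 1 marker of the aerocyte list and 5 of the general capillary list (5059 CPM) reached that share. Cluster 10 also had all 8 arterial markers at that share, at 5560 CPM, and cluster 17 had 6, at 3943 CPM. In both the general capillary list summed higher, at 5888 CPM (7 markers) in cluster 10 and 4704 CPM (6 markers) in cluster 17. A split of the lung endothelial-like cells by their best subset list, added after seeing the data, gave 437 cells to the arterial and 109 to the general capillary list, 6 to the aerocyte list and 58 to none. A single marker set the lead in 65 cells of the arterial, 39 of the general capillary and 2 of the aerocyte group. Arterial-list cells read 662 CPM (630 to 695) of Ednrb and general capillary-list cells 133 CPM (107 to 164). The 6 aerocyte-list cells read the highest level, 1618 CPM (35 UMIs, 1127 to 2250). The 350 lung endothelial-like cells with a UMI of Ednrb or Apln read 219 CPM (200 to 240) of Edn1 and the 260 with neither 325 CPM (296 to 357), and Ace read 782 and 741 CPM.

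The pericyte-like class held cluster 0 (1414 cells), cluster 7 (225 cells, led by cell cycle genes) and cluster 13 (111 cells, led by Rgs5, Steap4 and Procr). In cluster 13 the smooth muscle list summed to 6063 CPM (6 markers) and the mural list to 19926 CPM. Cluster 0 had 2148 CPM (5 markers) and 9513 CPM. Ednrb was almost confined to cluster 13, which held 120 of the 129 UMIs of the class at 229 CPM (190 to 274), against 0.499 CPM (0.136 to 1.28) in cluster 0. Edn3 went the other way, with 1 UMI in cluster 13 and 78.8 CPM (72.7 to 85.1) in cluster 0. Ednra and Agtr1a were lower in cluster 13 than in cluster 0, at 343 against 606 CPM and 139 against 202 CPM. Without cluster 13 the pericyte-like Ednrb level was 0.961 CPM and that of Ednra 582 CPM. A cluster of 363 cells led by haemoglobin genes and left unnamed had levels close to cluster 0, with 633 CPM of Ednra and 205 CPM of Agtr1a.

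In the myofibroblast-like class Ptgis separated cluster 1 (577 cells, 156 CPM, 144 to 170) from cluster 3 (434 cells, 5.50 CPM, 3.21 to 8.81), a 28.4-fold (17.6 to 49.1) difference, while Ednra was 160 and 152 CPM. Cluster 1 was led by Scgb3a2 and also by Scgb1a1, secretory genes of airway epithelium, whose part in this difference was not tested. Adventitial fibroblast-like clusters 2, 12 and 15 read 131, 48.0 and 200 CPM of Ptgis.

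**Figure D5:**
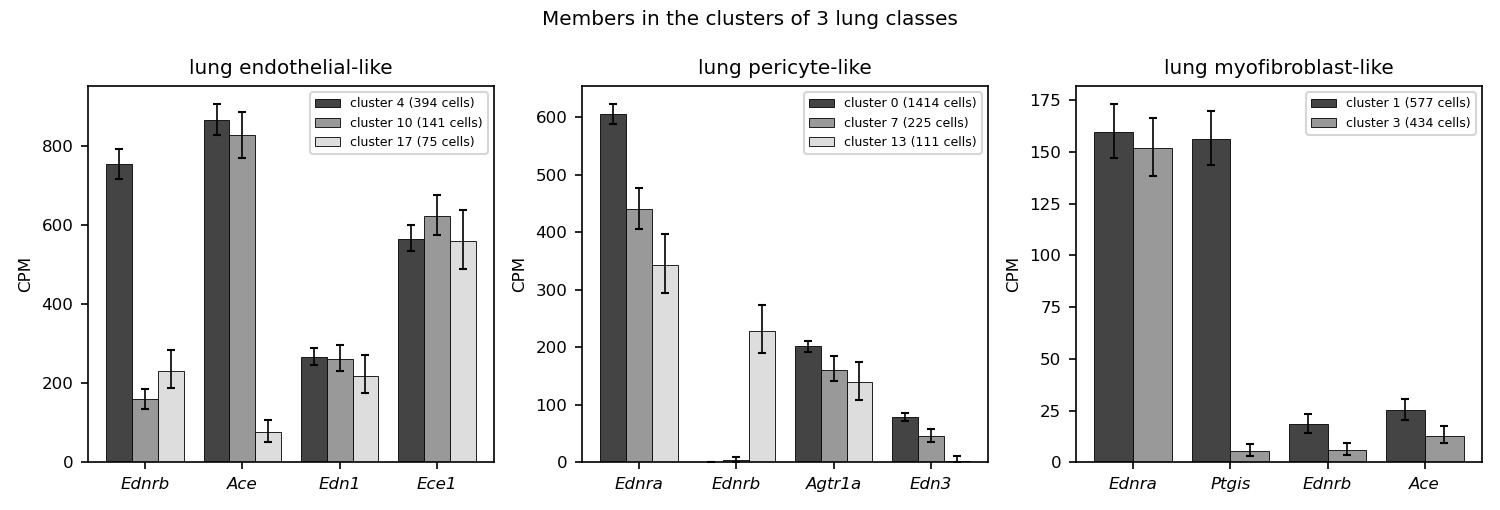
Levels in CPM, with exact 95% Poisson intervals, of 4 genes in the clusters that make up the lung endothelial-like (left), pericyte-like (middle) and myofibroblast-like (right) classes. Ednrb stands at 755 CPM in endothelial-like cluster 4 and at 229 CPM in pericyte-like cluster 13, Ace falls to 75.8 CPM in endothelial-like cluster 17, and Ptgis reads 156 CPM in 1 of the 2 myofibroblast-like clusters.

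The pathways around these genes were read from lists of 73 related genes, of which 67 had counts in brain and 65 in lung. Between 56.8% and 80.0% of the list genes tested differed at least 2-fold in the 16 comparisons, beside 25.5% to 38.3% of all genes, and the list had been chosen with earlier results known. For endothelin itself, Edn2 had no UMI in any class compared, and Ece2, a second converting enzyme, read at most 23.5 CPM, in brain mural-like cells. Mme, a peptidase that degrades endothelins, read 73.3 CPM in matrix fibroblast-like cells and at most 10.2 CPM elsewhere.

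In the endothelial over mural comparison of brain, 13 list genes were higher and 15 lower of 35 tested, against 34.9% of all genes past 2-fold either way. Highest were Ramp2, a partner of the adrenomedullin receptor (99.9-fold), Cav1, which binds Nos3 in caveolae (64.3-fold), and Ddah1, which degrades inhibitors of nitric oxide synthesis (38.4-fold). Lowest were Gucy1b3 (128-fold lower) and Gucy1a3 (117-fold lower), the subunits of the nitric oxide receptor guanylate cyclase, and Enpep, which degrades angiotensin II (98.9-fold lower). In lung the corresponding comparison had 18 higher and 18 lower of 48, against 34% of all genes. Slco2a1, a prostaglandin transporter (175-fold), Hpgd, which degrades prostaglandins (172-fold), and the apelin receptor Aplnr (149-fold) were highest, and Ptgir, the prostacyclin receptor, Enpep and Gucy1b3 were 90.3-fold, 45.7-fold and 42.8-fold lower. Thus in both tissues Nos3 lay on the endothelial side and Gucy1b3, a subunit of the nitric oxide receptor, on the mural side, and in lung Ptgis lay highest in smooth muscle-like cells and Ptgir highest in pericyte-like cells (52.1 CPM).

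Smooth muscle-like over pericyte-like cells had 10 list genes higher and 12 lower of 36, against 35.2% of all genes. Ramp1, a partner of the CGRP receptor (84.2-fold), Cav1 (33.3-fold) and the neuropeptide Y receptor Npy1r (13.1-fold) were highest, and Nostrin, a regulator of Nos3 trafficking (74.7-fold), Ptgir (25.2-fold) and Pde5a, which degrades cyclic GMP (21.4-fold) were lowest. Between lung and brain endothelial-like cells 16 were higher and 8 lower of 41, against 27.5% of all genes. Hpgd was at least 693-fold higher in lung, Npr3, the clearance receptor of natriuretic peptides, 155-fold and Slco2a1 134-fold, while Ptgds and Ptges were lower. Ptgds, a prostaglandin D synthase, had 47078 UMIs in the 66 brain fibroblast-like cells and 105 in brain endothelial-like cells, and the part of free RNA in the latter was not tested. Between lung pericyte-like and brain mural-like cells 13 genes of all lists together were higher and 11 lower of 38, against 34.4% of all genes.

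The renin-angiotensin list placed its members in different stromal cells. Agt, the precursor of the angiotensins, stood at 1030 CPM in lung myofibroblast-like and 7.98 CPM in adventitial fibroblast-like cells (129-fold, 97.8 to 174). The second angiotensin receptor Agtr2 was 90.9 CPM in adventitial fibroblast-like and 0.101 CPM in pericyte-like cells, the reverse of Agtr1a. Enpep stood at 822 CPM in matrix fibroblast-like cells. Ren1, which starts the cascade, read at most 1.44 CPM.

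Genes whose levels over the 9 classes were most like those of each member were named as a description, by Pearson's r of log2(CPM + 10) among 11473 genes. Nos3 was nearest to Ceacam1, Kdr and Mcf2l (r = 0.999, 0.996 and 0.994) and Edn1 to Ptprb, Cyyr1 and Ctla2a (0.996, 0.993 and 0.989). Agtr1a was nearest to Adcy8, Esco2 and Ska1 (0.995, 0.992 and 0.991), Edn3 to Fam178a, Mettl8 and Tfap4 (0.978, 0.903 and 0.892) and Ednra to 4933431K23Rik, Man2a2 and Arhgef17 (0.964, 0.945 and 0.940). Ednrb was nearest to Tox2, Inhbb and Cd36 (0.952, 0.949 and 0.942), Ece1 to Dido1, Emcn and Plekha1 (0.961, 0.952 and 0.9502), Ptgis to Adamts15 and Tyro3 (0.954 and 0.947) and Ace to Mbd4, Pon3 and Tspan8 (0.965, 0.960 and 0.957). The 9 points share 2 libraries, and a single high class can set such a value.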

How the data were processed

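The submitters' processing notes name bcl2fastq 2.19.1.403, UMI-tools 1.0.0, STAR 2.7.1a and featureCounts 1.6.4 with mm10. The deposited values are raw UMI counts per gene and cell barcode, without normalization. How barcodes were called, and against which annotation reads were counted, is not given in the sources used here.

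Barcodes with more than 200 and fewer than 4000 genes and under 40% mitochondrial counts were used, following the study's own limits. Each library was clustered in Seurat 5.3.0 (R 4.3.3; 20 principal components, resolution 0.8, 1909 brain and 1906 lung variable genes). A cluster took the best marker list where its score was at least 1 and led by at least 0.5 (1 where none of its markers was among the 10 leading genes), with at least 3 markers found. Counts were summed per class and divided by the class total. Ratios carry exact conditional binomial intervals, levels exact Poisson and shares exact Clopper-Pearson intervals, and the upper limit of a share of 0 is 3 cells of the total. All cover counting error only. Thinned shares come from 1 draw. There was no test, because each group was 1 library. Scripts were tested on simulated data. Scrublet ran in scanpy 1.11.5 at an expected rate of 0.06. Positions are from GENCODE (GRCm38).

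Named were all 9 genes, up to 3 list genes at each end of a comparison, and the 3 genes most like each member, apart from a few genes that are not reported here. The 9 genes and the lists were chosen with earlier results of these data known. Alternatives were other cell filters, doublet removal, resolutions 0.4 and 1.2, the 9 genes kept among the variable genes, gating of single cells, CPM without mitochondrial and ribosomal protein genes, other depths and a fold of 3.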

Additional observations from a re-analysis of the deposited data

Results flagged for a closer look

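Some genes lay on opposite sides of the same contrast in brain and lung. These differences were not tested, since each tissue was 1 library. In brain the Edn3 level of endothelial-like cells was at least 16.4-fold above that of mural-like cells, and its endothelial over pericyte ratio in lung was 0.0205. The same ratios of Ednrb were 0.212 in brain, from 4 and 7 UMIs, and 40.6 in lung. Those brain levels were 3.17 and 14.98 CPM, beside 14.1 CPM in NB-like cells, and the part of free RNA in them was not tested. Without cluster 13 the pericyte-like Ednrb level of lung was 0.961 CPM. The endothelial over mural or pericyte ratios of Ece1 were 0.594 in brain and 20.3 in lung. For Edn3 the mural over fibroblast ratio was at most 0.0192 in brain, and in lung at least 4.47 against matrix and 10.0 against adventitial fibroblast-like cells. Endothelial over fibroblast ratios of Ace were 0.338 in brain and, in lung, at least 48.7 against matrix and 41.0 against adventitial fibroblast-like cells.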

How the results depend on the processing

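Among the 16 comparisons of the 9 genes, the number of genes past 2-fold stayed within 1.5 times its value under each alternative that kept this fold and gave one. At a fold of 3, no gene called between myofibroblast-like and adventitial fibroblast-like cells would count. Edn3, for example, stood at 16.9 against 7.02 CPM and Ednrb at 12.8 against 4.63 CPM. No matrix fibroblast-like class formed once the cells called by Scrublet were removed, so its comparisons have no value there. Of the recomputed ratios of called genes, 903 kept their direction within the interval of the reported ratio or as a bound, 68 moved beyond that interval in the same direction and 10 changed direction. All 10 involve the adventitial fibroblast-like class as the second class. The pericyte over adventitial fibroblast ratio of Edn1 became 0.236 without an upper limit of genes, 0.871 above 500 genes, 0.866 at resolution 0.4 and 0.712 with gating of each cell. The smooth muscle over adventitial fibroblast ratio of Edn3 became 1.91 without that limit, 2.55 at resolution 0.4, 1.71 with gating and 2.53 with cluster 8, and that of Ptgis 0.895 with gating. The myofibroblast over adventitial fibroblast ratio of Edn1 became 0.492 without an upper limit. With 2 of 6 contractile genes as the brain smooth muscle gate, 0 in place of 2 genes was past 2-fold between gated and other mural-like cells. At a fold of 3, 18 of 35 list genes differed between myofibroblast-like and matrix (14.4% of all genes), 20 of 50 between myofibroblast-like and adventitial (15.2%), and 14 of 45 between adventitial and brain fibroblast-like cells (17.4%). Cells with both Ednra and Agtr1a numbered 150 at 1000 UMIs and 1038 without thinning. No paired analysis was possible because each group held 1 library.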
